A study of Mus musculus with 6 samples.

Results

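Genes of peroxisomal and mitochondrial fatty acid oxidation were compared between livers of ethanol-exposed and control mice. They are the genes that the deposited expression table annotates with the KEGG peroxisome or fatty acid degradation pathway, without the Adh, Aldh, Cyp, Gst and Slc families and without Cat, Cpt1a, Ehhadh, Acat2, Mvk and Pmvk. Of the 28880 genes in the table, 123 carry either annotation, 25 were left out by these exclusions and 98 remained, 68 from the peroxisome pathway only, 19 from fatty acid degradation only and 11 from both. Bulk RNA-seq had been made from whole liver of wild-type male C57BL/6J mice aged 6 to 8 weeks, 3 ethanol-exposed mice (A1 to A3, here ethanol replicates 1 to 3) and 3 control mice (H1 to H3, here control replicates 1 to 3). The ethanol group had been fasted for 12 h, given 50% ethanol once by mouth at 6 g/kg and killed 24 h later, while the controls received no ethanol. Whether the controls were also fasted or gavaged is not given in the sources used here, so the ethanol and the fast before it cannot be told apart.

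Long-chain fatty acids are activated to acyl-CoA by acyl-CoA synthetases, carried into mitochondria as carnitine esters and shortened there by repeated cycles of dehydrogenation, hydration, dehydrogenation and thiolysis, a route that is the main fuel supply of the fasting liver. Peroxisomes run a parallel cycle that begins with an oxidase which gives hydrogen peroxide, and they take very long-chain, branched and dicarboxylic fatty acids and bile acid precursors, then export shortened products to mitochondria as carnitine or free acids. They also start ether lipid synthesis, oxidise D-amino acids, polyamines and glyoxylate precursors, and are built by peroxins, the proteins that insert their membrane and import their enzymes.

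The libraries held 60514417 to 74210869 counts. Their TMM factors, which correct library size for the make-up of the RNA, were 0.77 to 0.84 in the ethanol group and between 1.258 and 1.265 in the controls. Ethanol replicate 3 stood apart from the other ethanol libraries on the second principal component (16.7% of variance). On the TMM scale, the summed level of hepatocyte markers was 140800 to 147700 CPM (counts scaled to a fixed library total after TMM correction) in the ethanol libraries and 79730 to 91850 in the controls, with 6 of 10 markers higher and 0 lower. Neutrophil markers summed to 2.33 to 13.0 CPM against 0.12 to 0.40, with 5 of the 5 tested higher. Kupffer cell markers summed to 78.0 to 108 CPM against 111 to 121, sinusoidal endothelial markers to 70.4 to 129 against 85.5 to 99.9, stellate cell markers to 145 to 169 against 117 to 130, cholangiocyte markers to 57.6 to 75.0 against 31.6 to 73.1 and T cell markers to 0.56 to 0.77 against 1.88 to 2.54, while adipocyte and skeletal muscle markers stayed at or below 0.39 CPM. All these sums are on the TMM scale alone, and its factors differed between the groups. On unscaled counts a difference can therefore shrink or turn, and marker sums on that scale are not given here. The part of these differences in the results was not tested, and in bulk tissue fewer cells of a type and less RNA per cell cannot be told apart.

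Of the 98 members, 90 passed the filter on low counts and were tested. With edgeR's quasi-likelihood test and Benjamini-Hochberg adjustment over all 16717 genes tested, 53 members (58.9%) had an adjusted p under 0.05, against 43.0% of all genes. Of these, 31 were higher in the ethanol group (34.4%, against 21.5% of all genes) and 22 lower (24.4%, against 21.5%). In all, 14 members (15.6%) were differentially expressed genes (DEGs), which also needed a log2 fold change beyond 1, and the share over all genes was 24.2%. The 6 higher DEGs (6.67%, against 10.4% of all genes) were Far2, Pex26, Eci2, Amacr, Pex16 and Sod1, and the 8 lower DEGs (8.89%, against 13.8%) included Acnat1, Acnat2, Paox, Ddo, Crot, Pex10 and Pex11g. The order of these shares turned with the processing. With library size alone 53.3% of members and 55.7% of all genes passed, and with a mean FPKM of at least 5 these were 48.6% and 56.8%. With limma on log2(FPKM + 1), 56.7% and 59.1% passed and 23.3% and 12.6% were DEGs, with log2(FPKM + 0.1) 56.7% and 59.5% passed, and with no filter 15.3% and 14.4% were DEGs. Their median standard error on the log2 scale was 0.14, against 0.26 over all genes tested. The groups did not overlap for 62 members (68.9%), against 59.0% of all genes.

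The use of library size alone in place of TMM factors moved the members and all genes alike. With TMM factors the median log2 fold change of the members was 0.21, beside -0.04 over all genes tested, and with library size alone it was -0.45, beside -0.71. Summed over the members, the TMM-scaled level was 24510, 23710 and 21390 CPM in the ethanol libraries and 19550, 17430 and 17410 CPM in the controls. As an unscaled share of all counts, however, the same genes took 1.91%, 1.98% and 1.64% in the ethanol libraries and 2.47%, 2.20% and 2.19% in the controls, so the sum was higher in every ethanol library on the first scale and lower in every one on the second. Relative to the median of all genes the members lay 0.26 higher under both scalings, but at -0.04 with a mean FPKM of at least 5 and at -0.16 with limma on log2(FPKM + 1). The 5 scalings were therefore compared in edgeR (TMM, relative log expression, upper quartile, library size alone, and TMM with the trend against gene length removed). Library size alone lowered the log2 fold change of every member by 0.64 to 0.69 and that of all genes by a median of 0.67, so it moved the members and the other genes alike and turned the sign of rises smaller than that. Eci2, Far2, Pex16, Pex26 and Sod1 passed as higher under all 5 (5.56% of members, against 7.37% of all genes), and 20 members passed as lower under all 5 (22.2%, against 17.6%). Since library size alone lowers every member, it can turn a rise but not a fall, and the second count does not show that falls were more stable than rises.

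**Figure D1:**
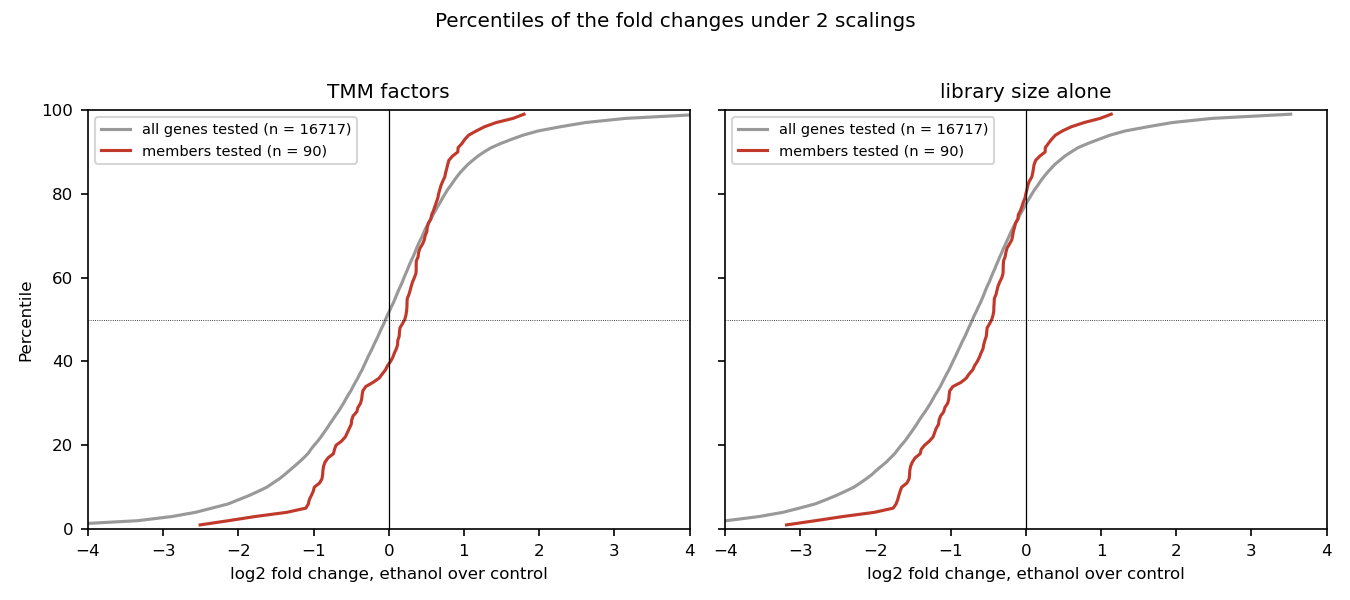
Percentile (y) of the log2 fold change of ethanol over control (x) for the 90 members tested and all 16717 genes tested, with TMM factors (left) and with library size alone (right). The median of the members moved from 0.21 to -0.45 and that of all genes from -0.04 to -0.71, with the members' curve to the right of the other at the median in both panels.

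**Figure D2:**
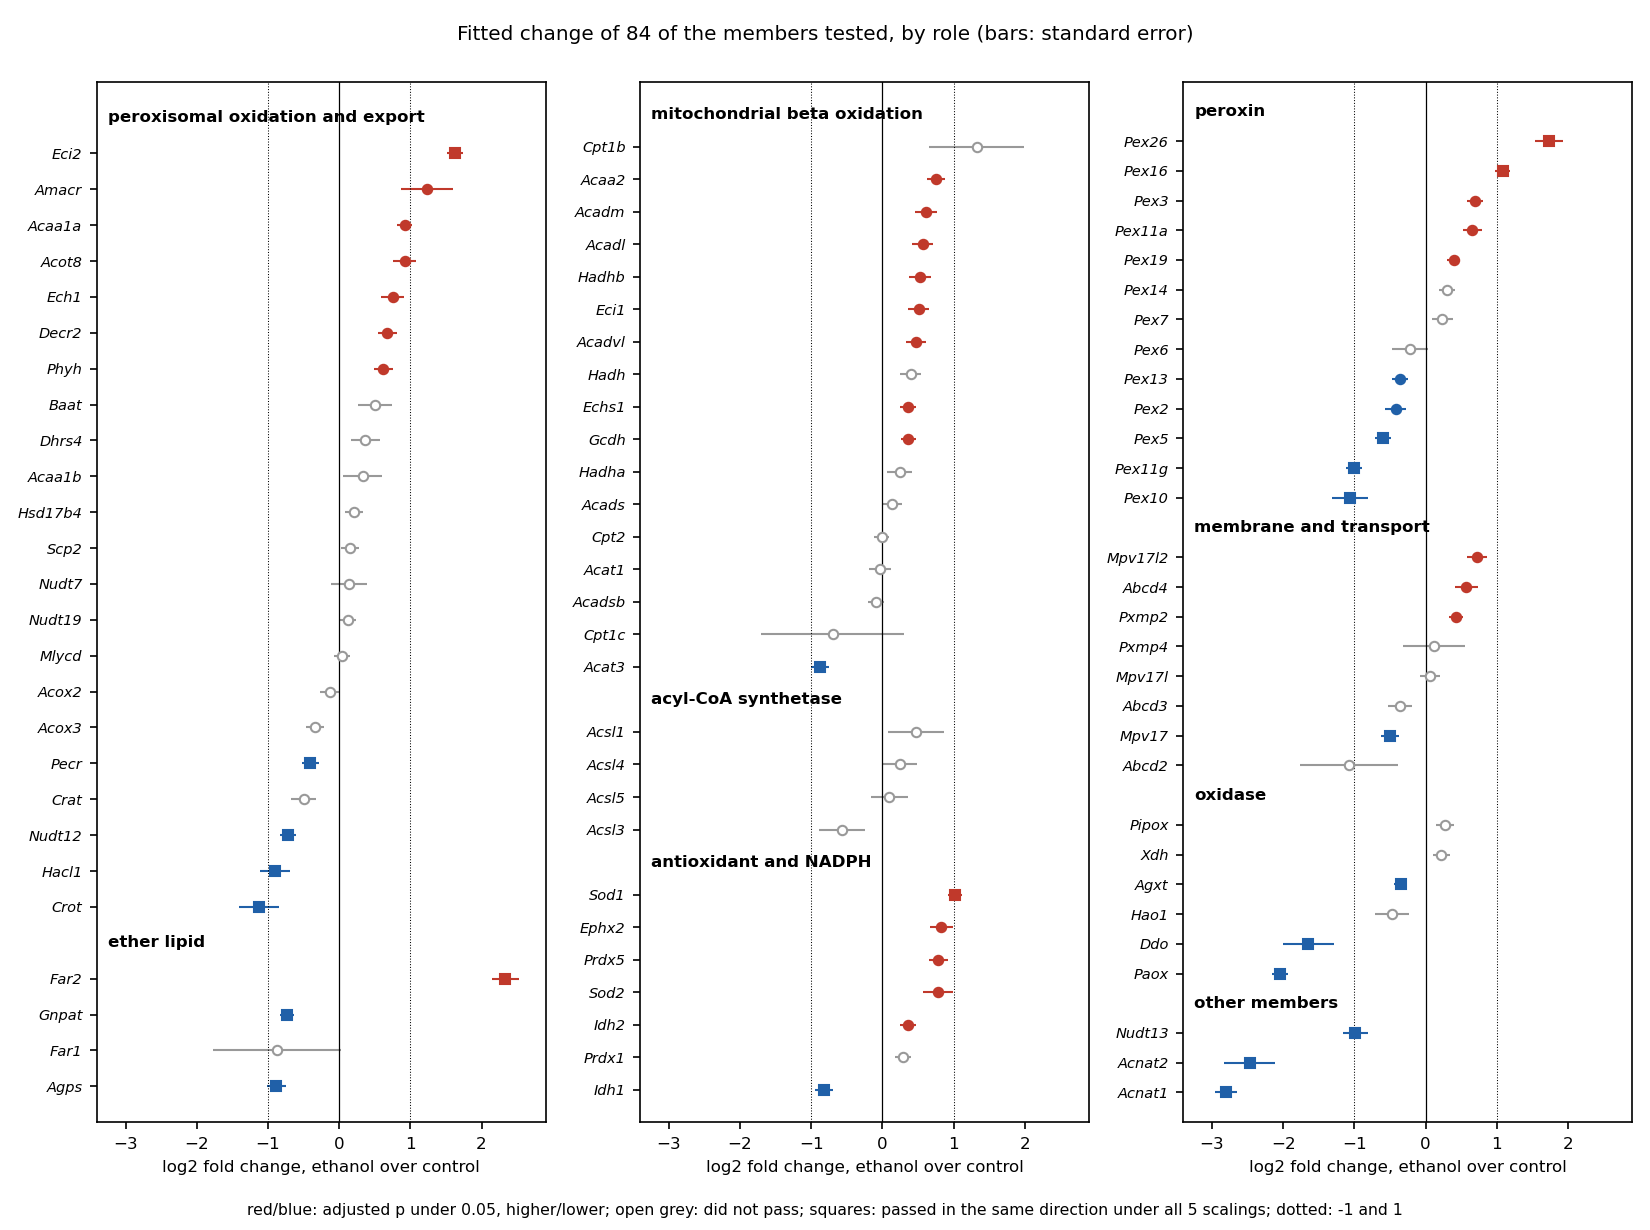
Log2 fold change of ethanol over control with TMM factors (x, bars are the standard error) for 84 of the 90 members tested, grouped by role. Of those drawn, 29 passed as higher (red) and 20 as lower (blue), and squares mark the 5 and 18 that passed the same way under all 5 scalings; with library size alone every member dropped by 0.64 to 0.69, so that smaller rises change sign.

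Peroxisomal beta oxidation and its side branches gave 26 members, of which 24 were tested, 9 rose (37.5%) and 4 fell (16.7%) with TMM factors, against 21.5% of all genes in each direction. Eci2, the enoyl-CoA isomerase that moves double bonds so that unsaturated acyl chains can pass through the cycle, stood at 313, 306 and 274 CPM in the ethanol libraries and at 103, 90.5 and 95.1 CPM in the controls. Every ethanol value was far above every control value. Its level was 3.10-fold higher (log2 fold change 1.63, SE 0.11, adjusted p = 0.000128), and its log2 fold change ranged from 0.96 to 1.82 over the 5 scalings. Its paralog Eci3 had 3 counts in ethanol replicate 3 and 0 in the other libraries, so almost no reads were assigned to it. How reads that fit both genes were counted is not given in the sources used here.

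Of the acyl-CoA oxidases, Acox2 for bile acid precursors was at -0.13 and Acox3 for branched chains at -0.34 on the log2 scale, and neither passed. Hsd17b4, the bifunctional hydratase and dehydrogenase of the next steps, was at 0.20 (adjusted p = 0.233).

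Acaa1a, a thiolase of the last step, measured 275, 270 and 239 CPM after ethanol and 147, 132 and 135 CPM in controls. The ranges were well apart, with a log2 fold change of 0.92 (SE 0.11, adjusted p = 0.000874), which fell to 0.26 with library size alone (adjusted p = 0.113). Its near-identical paralog Acaa1b measured 1059, 1053 and 523 CPM against 841, 623 and 635 CPM, overlapped between the groups and did not pass (log2 fold change 0.33, adjusted p = 0.373), though it did without ethanol replicate 3 (0.61, adjusted p = 0.0072). Reads that fit both thiolase genes could have been assigned to either. Scp2, a sterol carrier with a thiolase form for branched chains, had the highest level per length of all members in the controls, 963 ± 4.73 FPKM (SD, n = 3), and did not pass (log2 fold change 0.15, adjusted p = 0.360).

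Amacr, the racemase that readies branched-chain and bile acid intermediates for oxidation, was at 179, 149 and 416 CPM against 108, 102 and 107 CPM. Ethanol replicate 3 carried much of this difference: the log2 fold change was 1.23 (SE 0.37, adjusted p = 0.0312) with it and 0.64 without it, and the call was lost without any single control library (adjusted p = 0.0948 to 0.0992). The auxiliary enzymes Ech1 (log2 fold change 0.75) and Decr2 (0.68), which like Eci2 handle double bonds, and the thioesterase Acot8 (0.92) also passed as higher with TMM factors. With library size alone these 3 were at 0.09, 0.01 and 0.26.

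In alpha oxidation, which removes a single carbon from phytanic acid, consecutive enzymes moved apart. Phyh, the hydroxylase of the first step, measured 2471, 2028 and 1928 CPM after ethanol and 1476, 1336 and 1370 CPM in controls. These values did not overlap, and the log2 fold change was 0.62 (SE 0.13, adjusted p = 0.00894), though -0.05 with library size alone, and without control replicate 2 the call was lost (adjusted p = 0.0503). Hacl1, the lyase of the following step, measured 145, 172 and 127 CPM against 366, 236 and 228 CPM. It fell by 0.90 on the log2 scale (SE 0.21, adjusted p = 0.0134). The FPKM ratio of Phyh to Hacl1 within a library, which a single factor per library cannot change (a correction for gene length can), was 44.6, 30.8 and 39.7 in the ethanol group and 10.5, 14.8 and 15.7 in the controls.

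Crot, the octanoyltransferase that turns shortened acyl-CoA into carnitine esters for export, measured 289, 257 and 132 CPM after ethanol and 565, 457 and 462 CPM in controls. It was lower in every ethanol library and lowest in replicate 3. It fell by 1.13 on the log2 scale (SE 0.28, adjusted p = 0.0158), by 0.85 without ethanol replicate 3 (adjusted p = 0.000757), and missed the threshold without control replicate 1 (adjusted p = 0.0598). Crat, which does the same for acetyl groups, was at -0.50 (adjusted p = 0.0555). Nudt12 (-0.72), a hydrolase of nicotinamide nucleotides, and Pecr (-0.41), a reductase of enoyl-CoA, also fell, and Pecr lost the call in 4 of the 6 fits with a library left out (adjusted p = 0.0556 to 0.0969). Within libraries, the FPKM of Eci2 over that of Crot, a pair chosen after the values were seen, was 1.07, 1.17 and 2.04 in the ethanol libraries and 0.18, 0.20 and 0.20 in the controls.

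The sequences at the starts of 4 DEGs, chosen after their values were seen, are shown to set both directions side by side, Eci2 and Far2 for the rise and Acnat1 and Paox for the fall. Each is the RefSeq window of 300 bases (250 before to 50 after the annotated start, build GRCm38.p6), printed 5′ to 3′ on the strand of the gene, with capitals where a searched motif lies. The motifs were the CCAAT box, the GC box GGGCGG and the TATA motif TATAAA, each on either strand, so that a match on the opposite strand appears as its reverse complement. A reversed CCAAT box can share up to 2 bases with a GC box. Eci2 lies at chr13:34994095-34994394 on the minus strand, Far2 at chr6:148047166-148047465 on the plus strand, Acnat1 at chr4:49451060-49451359 on the minus strand and Paox at chr7:140125407-140125706 on the plus strand.
Eci2: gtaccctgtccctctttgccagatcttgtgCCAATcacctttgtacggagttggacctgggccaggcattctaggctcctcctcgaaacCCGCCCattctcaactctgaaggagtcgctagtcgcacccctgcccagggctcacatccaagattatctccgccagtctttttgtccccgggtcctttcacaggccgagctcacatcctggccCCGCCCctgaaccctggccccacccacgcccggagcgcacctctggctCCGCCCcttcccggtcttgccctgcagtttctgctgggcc
Far2: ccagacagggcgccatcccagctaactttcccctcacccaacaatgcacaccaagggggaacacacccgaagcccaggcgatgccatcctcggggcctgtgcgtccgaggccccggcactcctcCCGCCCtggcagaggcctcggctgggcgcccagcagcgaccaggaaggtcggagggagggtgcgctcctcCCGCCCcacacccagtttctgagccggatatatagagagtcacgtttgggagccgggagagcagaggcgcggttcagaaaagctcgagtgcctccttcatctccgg
Acnat1: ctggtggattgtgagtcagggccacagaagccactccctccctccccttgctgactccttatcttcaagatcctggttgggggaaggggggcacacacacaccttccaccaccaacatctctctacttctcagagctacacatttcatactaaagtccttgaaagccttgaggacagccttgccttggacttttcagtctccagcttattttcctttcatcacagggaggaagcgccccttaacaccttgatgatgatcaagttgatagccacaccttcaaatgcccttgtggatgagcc
Paox: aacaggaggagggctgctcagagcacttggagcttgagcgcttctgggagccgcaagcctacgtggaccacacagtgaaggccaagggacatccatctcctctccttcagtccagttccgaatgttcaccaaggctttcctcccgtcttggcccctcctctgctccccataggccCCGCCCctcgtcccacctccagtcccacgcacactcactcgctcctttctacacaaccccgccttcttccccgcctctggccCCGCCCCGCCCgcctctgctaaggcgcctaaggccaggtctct
The Eci2 window held 1 CCAAT and 3 GGGCGG, that of Far2 held 2 GGGCGG, that of Paox held 3 GGGCGG, and that of Acnat1 held 0 of any. Of the 98 members, 73 matched the promoter table, and GGGCGG lay in 67.1% of them, against 64.7% of the 11255 genes tested that have an entry and 38.2% of all 27025 entries. It lay in 18 of 23 members that rose (78.3%) and 11 of 17 that fell (64.7%). CCAAT lay in 41.1% of members and 42.8% of genes tested, and TATAAA in 8.22% and 9.69%. The direct repeat of AGGTCA with any 1 base between its copies (DR1), the element known for binding of the lipid sensor PPAR-alpha with its partner RXR, was searched on both strands with up to 2 mismatches and found in 2 members (2.74%), Echs1 and Acox2, against 3.92% of genes tested and 4.40% of all entries. A match is a description of these letters in this window and not a site.

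Mitochondrial beta oxidation, with Acat3 counted in it, gave 17 members, all tested, of which 8 passed as higher (47.1%) and 1, Acat3, as lower (5.88%) with TMM factors, against 21.5% of all genes in each direction, with a median log2 fold change of 0.37 and no DEG. These rises of 0.36 to 0.76 are of about the size of the shift between the scalings, and 0 of them passed as higher under all 5. Acaa2, the thiolase of the last step and the member with the highest level per length here (471 FPKM in controls), measured 1101, 1086 and 882 CPM after ethanol and 642, 585 and 589 CPM in controls. The log2 fold change was 0.76 (SE 0.13, adjusted p = 0.00341), and 0.09 with library size alone (adjusted p = 0.607). Acadm, the medium-chain dehydrogenase, measured 310, 321 and 234 CPM against 214, 177 and 176 CPM, with a log2 fold change of 0.61 (SE 0.16, adjusted p = 0.0178) that was -0.06 with library size alone. Ethanol replicate 3 was the lowest of its group in each of these genes while still above every control.

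The long-chain dehydrogenases Acadl (log2 fold change 0.56) and Acadvl (0.47), the trifunctional protein subunit Hadhb (0.53), the isomerase Eci1 (0.51), the hydratase Echs1 (0.36) and the glutaryl-CoA dehydrogenase Gcdh (0.37) passed as higher with TMM factors and were at -0.10, -0.19, -0.14, -0.15, -0.30 and -0.30 with library size alone. Every one of these 6, and Acadm, lost the call when some single library was left out. Hadha, the partner subunit of Hadhb, measured 290, 291 and 192 CPM against 243, 208 and 202 CPM, overlapped and did not pass (log2 fold change 0.24, adjusted p = 0.311), though it did without ethanol replicate 3 (0.43, adjusted p = 0.00714). Cpt2, which releases acyl-CoA from carnitine inside the mitochondrion, was at 118, 114 and 114 CPM against 130, 109 and 109 CPM, with a log2 fold change of -0.01 (SE 0.11, adjusted p = 0.956). Acadsb, for short branched chains, was at -0.08, Acads at 0.14, Hadh at 0.40 and Acat1 at -0.03, and none of these 4 passed. Cpt1b, the muscle form of the carnitine entry enzyme, stayed at 0.45 to 8.16 CPM (log2 fold change 1.33, adjusted p = 0.147), and Cpt1c at or below 0.45 CPM.

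Acat3, an acetyl-CoA acetyltransferase close in sequence to Acat2, went the other way. It was placed in this group by the list of roles, and that its product acts in mitochondria is not shown here. Acat3 measured 158, 171 and 135 CPM after ethanol and 304, 265 and 282 CPM in controls, and fell by 0.88 on the log2 scale (SE 0.12, adjusted p = 0.00173). Reads shared with Acat2 are uncertain. The FPKM ratio of Acaa2 to Acat3 was 11.2, 10.2 and 10.5 in the ethanol group and 3.38, 3.53 and 3.34 in the controls. This pair was chosen after the values were seen, with a member that rose over a member that fell.

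**Figure D3:**
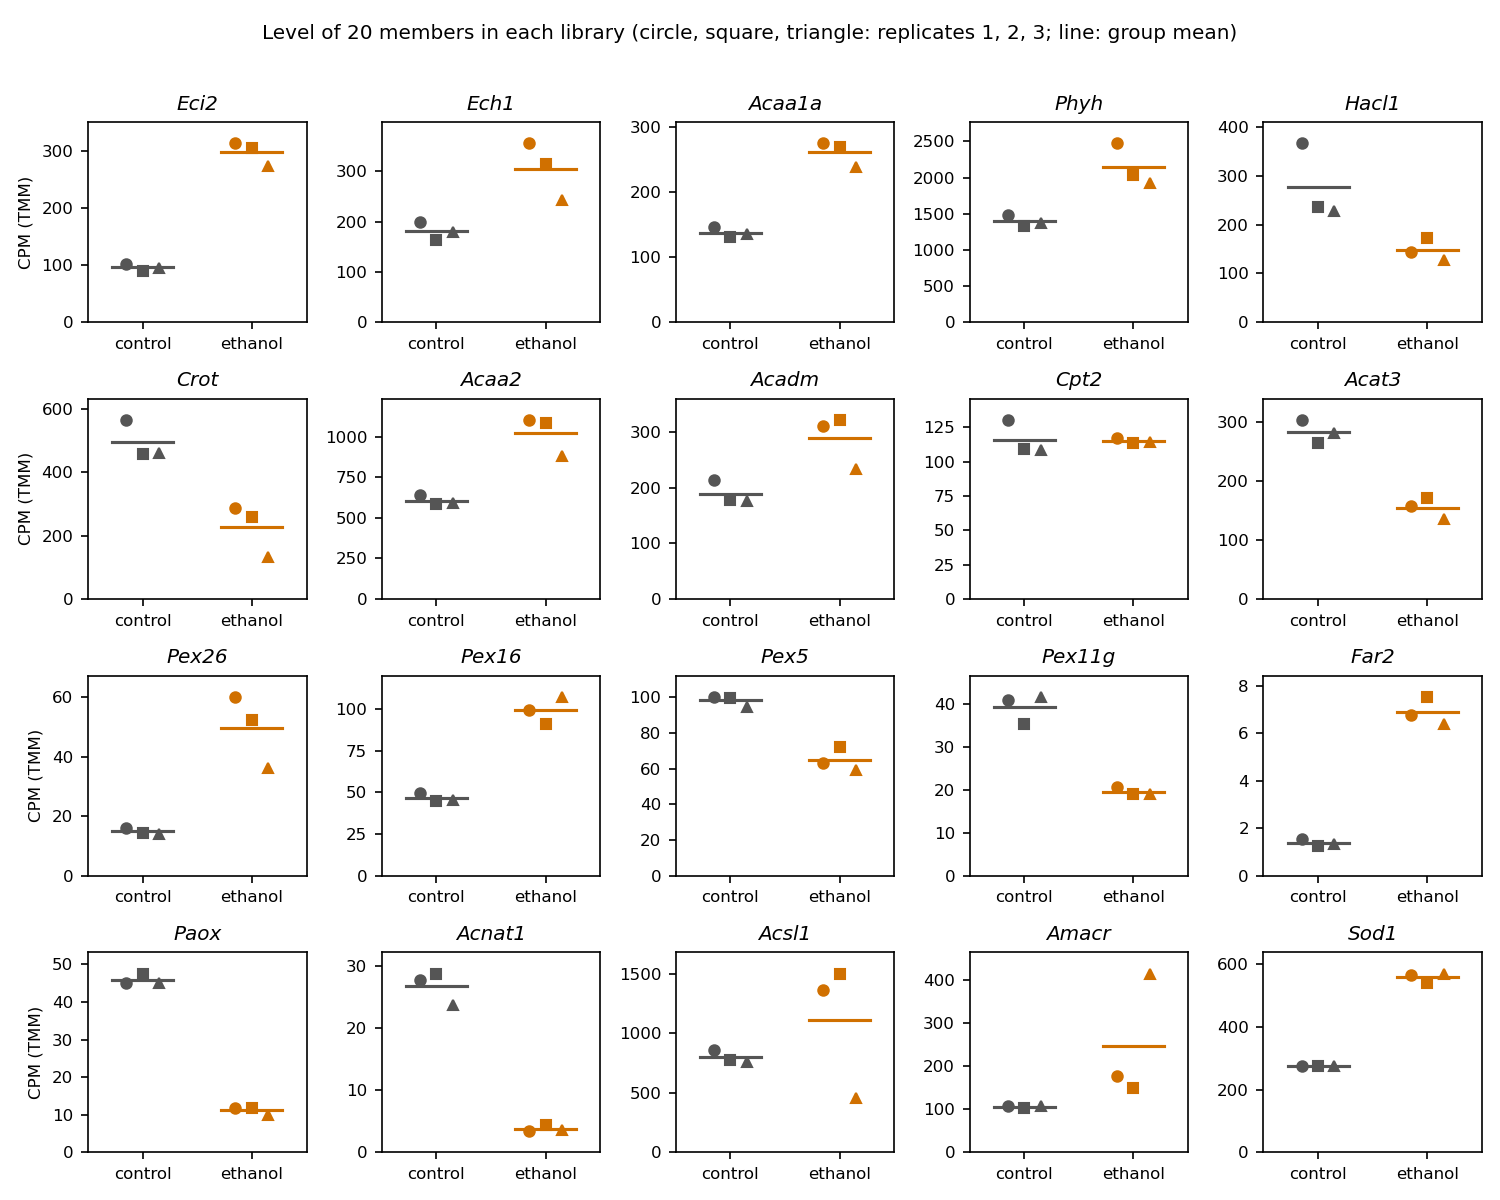
CPM after TMM scaling (y, from 0) of 20 members in each library, controls in grey and ethanol in orange, with a line at each group mean. Eci2, Pex26, Far2 and Sod1 lay higher in all 3 ethanol libraries and Paox and Acnat1 lower in all 3, Cpt2 overlapped, and in Acsl1, Crot and Amacr ethanol replicate 3 (triangle) lay apart from the other ethanol libraries.

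Of the 7 acyl-CoA synthetases, 4 were tested and 0 passed (all genes 43.0%). Acsl1, the main long-chain synthetase of liver, measured 1367, 1500 and 460 CPM after ethanol and 857, 779 and 759 CPM in controls. Replicates 1 and 2 were above every control and replicate 3 was below every control. The log2 fold change was 0.47 (SE 0.39, adjusted p = 0.359) and 0.86 without ethanol replicate 3 (adjusted p = 0.000259). Acsl4, for polyunsaturated chains, measured 80.2, 63.2 and 38.7 CPM against 48.8, 48.3 and 57.0 CPM. Acsl5 measured 397, 442 and 226 CPM against 404, 298 and 296 CPM. Acsl3 measured 18.3, 29.8 and 10.8 CPM against 31.1, 28.4 and 27.7 CPM. All 4 were lowest in ethanol replicate 3 among the ethanol libraries. Acsl4 passed as higher without that library (0.49, adjusted p = 0.0141), and Acsl3 passed as lower without ethanol replicate 2 (-0.99, adjusted p = 0.0212). Of those too low to test, Acsbg1 had 0 counts in every ethanol library and 5, 10 and 34 in the controls (at least 3.82-fold lower, against a floor of 3 counts per library, and 1.77-fold without control replicate 3), and Acsbg3 had 3, 11 and 6 counts in the ethanol libraries and 0 in each control (at least 3.17-fold higher, and 2.26-fold without ethanol replicate 2). Acsl6 had at most 22 counts in any library.

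**Figure D4:**
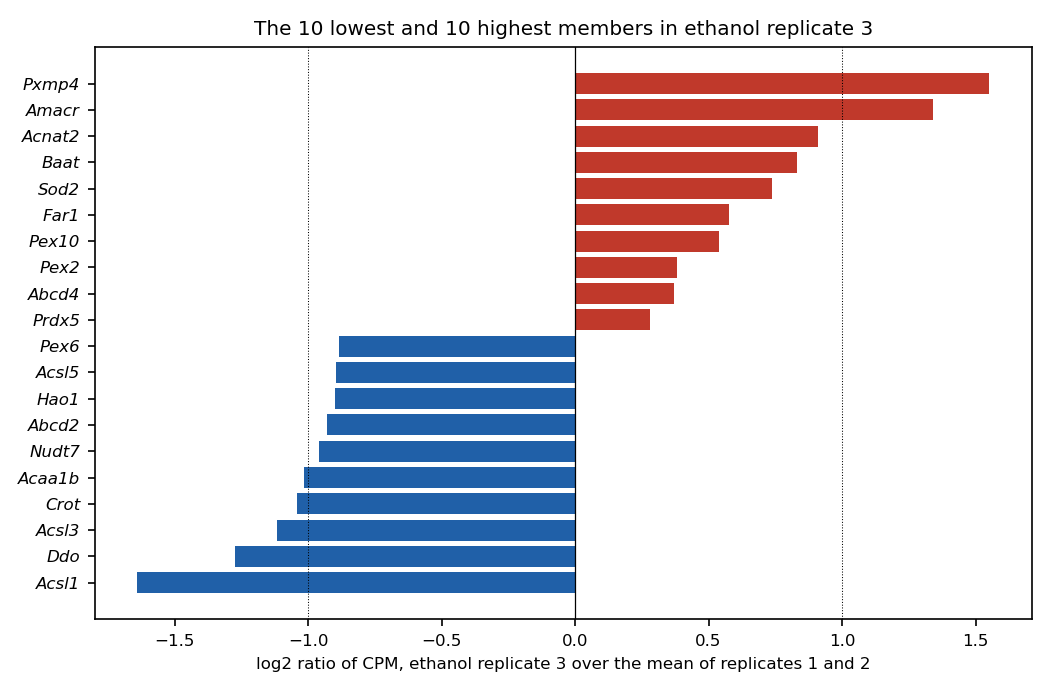
Log2 ratio of CPM in ethanol replicate 3 over the mean of ethanol replicates 1 and 2 (x) for the 10 lowest and 10 highest of the 84 members drawn. Acsl1 (-1.64) was lowest and Pxmp4 (1.55) highest, and 7 members passed the dotted lines at -1 and 1.

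Ethanol replicate 3 differed by over 2-fold from the mean of the other ethanol libraries in 7 members (7.78%, against 8.64% of all genes tested): Acsl1, Ddo, Acsl3, Crot and Acaa1b were lower in it, and Pxmp4 and Amacr were higher. Leaving it out moved the members that passed as higher from 31 to 44 (all genes from 21.5% to 24.7%). Besides Acsl1, Acsl4, Acaa1b and Hadha, those that gained a call without it included Acads (0.26), Hadh (0.53), Hsd17b4 (0.31), Pex7 (0.39), Pex14 (0.24) and Pipox (0.37) as higher and Pxmp4 (-0.59) as lower. Leaving out control replicate 2 or 3 moved them to 16 or 17 (all genes to 14.7% or 14.5%). In all 6 fits with a library left out, 32 of the 53 members that passed kept their call, 16 higher and 16 lower. The share of all genes that kept theirs is not given here, so this count is not read as particular to the members.

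The peroxins gave 17 members, of which 16 were tested, 5 rose (31.2%) and 6 fell (37.5%) with TMM factors, against 21.5% of all genes in each direction. Pex16, Pex3 and Pex19, which act in membrane assembly, passed as higher with TMM factors. Pex16, a receptor for membrane proteins, measured 99.3, 90.8 and 107 CPM after ethanol and 49.7, 45.0 and 45.4 CPM in controls, a log2 fold change of 1.09 (SE 0.11, adjusted p = 0.000445), and it passed as higher under all 5 scalings. Pex3, the docking factor, was at 34.3, 28.8 and 29.8 CPM against 19.9, 19.6 and 17.9 CPM (log2 fold change 0.70, adjusted p = 0.00301), and Pex19, the chaperone of membrane proteins, stood at 0.40 on the log2 scale (adjusted p = 0.0138). With library size alone Pex3 was at 0.03 and Pex19 at -0.27, and Pex19 lost the call without control replicate 2 (adjusted p = 0.0741) or 3 (0.0687).

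Pex26, the membrane anchor of the ATPases that recycle import receptors, measured 60.1, 52.4 and 36.4 CPM after ethanol and 16.2, 14.4 and 14.2 CPM in controls. Its log2 fold change of 1.73 (SE 0.19, adjusted p = 0.000714) was the highest of any peroxin under TMM. Pex6, an ATPase that it anchors, measured 65.7, 90.7 and 42.2 CPM against 79.6, 72.5 and 79.7 CPM, overlapped and did not pass (adjusted p = 0.5).

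Pex5, the receptor that carries enzymes with the C-terminal targeting signal into the peroxisome, measured 63.2, 72.3 and 59.2 CPM after ethanol and 100.1, 99.6 and 94.7 CPM in controls. It fell by 0.60 on the log2 scale (SE 0.11, adjusted p = 0.00471). Pex7, the receptor for the N-terminal signal, was at 0.24 (adjusted p = 0.239). Of the docking proteins, Pex13 fell by 0.36 (adjusted p = 0.0366) and Pex14 was at 0.31 (adjusted p = 0.0580). Of the ubiquitin ligase that acts on the receptors, Pex10 fell by 1.06 (adjusted p = 0.0127) and Pex2 by 0.42 (adjusted p = 0.0499). Pex13 and Pex2 lost the call when any single library other than ethanol replicate 3 was left out.

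Among the Pex11 proteins, which elongate and divide peroxisomes, the paralogs differed in direction. Pex11a measured 59.8, 67.5 and 50.2 CPM after ethanol and 36.6, 39.5 and 36.2 CPM in controls (log2 fold change 0.66, SE 0.13, adjusted p = 0.00657), with a value of -0.00 under library size alone. Pex11g measured 20.7, 19.0 and 19.2 CPM against 41.0, 35.3 and 41.7 CPM and fell by 1.00 (SE 0.11, adjusted p = 0.000689). The FPKM ratio of Pex16 to Pex5 rose from 1.1, 1.0 and 1.06 in the controls to 3.49, 2.79 and 4.02 in the ethanol libraries.

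**Figure D5:**
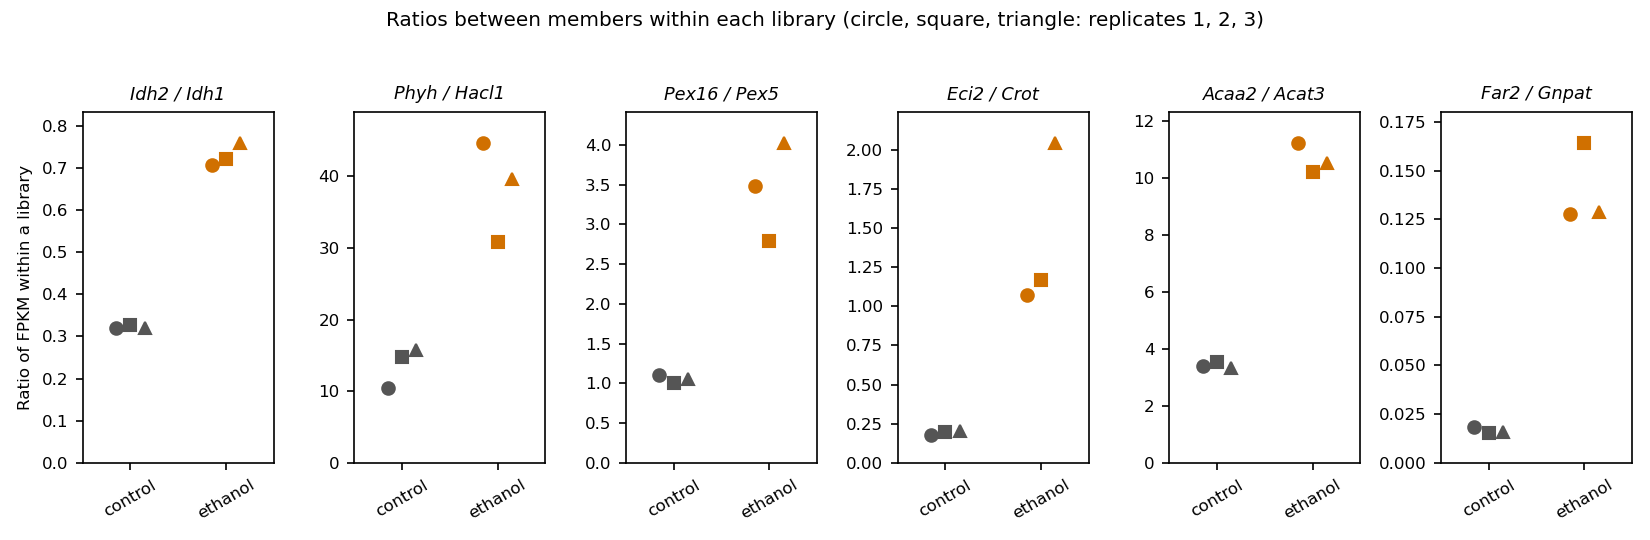
Ratio of the deposited FPKM of 2 members within the same library (y, from 0) for 6 pairs, with controls in grey and ethanol in orange. Idh2 to Idh1, for example, was 0.71 to 0.76 after ethanol and 0.32 to 0.33 in controls. The pairs were chosen after their values were seen and carry no test. Each sets a member that passed as higher with TMM factors over a member that passed as lower. That the groups did not overlap in any of the 6 pairs therefore follows from this choice.

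Of the 9 other membrane and transport members, 3 rose (33.3%) and 2 fell (22.2%), against 21.5% of all genes in each direction. Abcd3, the importer of branched chains and bile acid precursors and highest per length of this group in controls, measured 363, 388 and 272 CPM against 512, 402 and 402 CPM and did not pass (log2 fold change -0.36, adjusted p = 0.128). Mpv17 (-0.50), a membrane protein, fell, whereas Mpv17l2 (0.72), Abcd4 (0.57) and Pxmp2 (0.43) passed as higher with TMM factors and were at 0.05, -0.10 and -0.24 with library size alone. Mpv17 lost the call without ethanol replicate 1 or control replicate 1 or 2 (adjusted p = 0.0522 to 0.0576), and Abcd4 and Pxmp2 lost it without control replicate 2 or 3 (adjusted p = 0.0609 to 0.0974). Pxmp4 measured 73.2, 44.2 and 173 CPM against 87.1, 91.9 and 88.7 CPM, with ethanol replicates on both sides of the controls.

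Ether lipid synthesis starts in the peroxisome, and its enzymes also moved apart. Far2, a reductase that makes fatty alcohols, measured 6.78, 7.54 and 6.41 CPM after ethanol and 1.54, 1.23 and 1.32 CPM in controls. This was the largest rise of any member under TMM, 5.04-fold (log2 fold change 2.33, SE 0.20, adjusted p = 0.000245), at a low level. Far1, its paralog, ranged from 0.10 to 2.40 CPM in the controls alone and did not pass (adjusted p = 0.461). Gnpat, the acyltransferase that begins the route, measured 26.0, 22.5 and 24.5 CPM against 41.8, 39.2 and 40.5 CPM and fell by 0.74 (SE 0.10, adjusted p = 0.00162). Agps, which sets the ether bond, measured 5.08, 5.43 and 5.48 CPM against 9.93, 9.24 and 10.3 CPM and fell by 0.88 (SE 0.14, adjusted p = 0.00254). Far2 over Gnpat, as a ratio of FPKM within a library, was 0.13, 0.16 and 0.13 after ethanol and 0.018, 0.015 and 0.016 in controls.

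Of the 7 oxidases and related enzymes of amino acids, hydroxy acids, polyamines and purines, 6 were tested, 0 rose and 3 fell (50.0%, against 21.5% of all genes). Paox, which oxidises acetylated polyamines, measured 11.7, 11.8 and 9.99 CPM after ethanol and 45.0, 47.5 and 45.2 CPM in controls. It was 4.11-fold lower (log2 fold change -2.04, SE 0.11, adjusted p = 7.45e-05). The gene overlaps Echs1 on the opposite strand in the table's coordinates, and whether counting used the strand is not given in the sources used here. Ddo, the D-aspartate oxidase, measured 6.21, 6.83 and 2.40 CPM against 17.6, 15.5 and 15.3 CPM and fell by 1.65 (SE 0.36, adjusted p = 0.00964), and by 1.29 without ethanol replicate 3. Agxt, which detoxifies glyoxylate, fell by 0.35 (SE 0.09, adjusted p = 0.0210), a call lost without any single control library (adjusted p = 0.0671 to 0.0714). Pipox (0.27), Xdh (0.22) and Hao1 (-0.48) did not pass, and Hao2 had 0 counts in every ethanol library and at most 8 in a control.

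The members of antioxidant defence and NADPH supply numbered 8, of which 7 were tested, 5 rose (71.4%) and 1 fell (14.3%), against 21.5% of all genes in each direction. Sod1, the cytosolic superoxide dismutase, measured 564, 540 and 569 CPM after ethanol and 275, 275 and 275 CPM in controls. It showed little spread within either group and rose by 1.02 on the log2 scale (SE 0.10, adjusted p = 0.000378), between 0.35 and 1.17 over the 5 scalings. Sod2, its mitochondrial counterpart, measured 175, 177 and 294 CPM against 130, 124 and 122 CPM (log2 fold change 0.78, adjusted p = 0.0213, and 0.50 without ethanol replicate 3), and the call was lost without any single control library. Prdx5 (0.79), a peroxidase, and Ephx2 (0.83), the epoxide hydrolase, also rose, and both were higher in every ethanol library, with 0.11 and 0.17 under library size alone.

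The isocitrate dehydrogenases, which supply NADPH, moved in opposite directions. Idh1, in cytosol and peroxisome, measured 174, 180 and 148 CPM after ethanol and 328, 273 and 283 CPM in controls and fell by 0.82 (SE 0.13, adjusted p = 0.00254). Idh2, in mitochondria, measured 115, 121 and 105 CPM against 97.7, 83.0 and 84.5 CPM (log2 fold change 0.36, adjusted p = 0.0367, and -0.30 with library size alone), and lost the call in 4 of the 6 fits with a library left out. Idh2 over Idh1, as a ratio of FPKM within a library, was 0.71, 0.72 and 0.76 in the ethanol libraries and 0.32, 0.33 and 0.32 in the controls.

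The 3 remaining members all passed as lower with TMM factors, against 21.5% of all genes. Acnat1, which by its annotation conjugates fatty acids to amino acids, measured 3.39, 4.48 and 3.61 CPM after ethanol and 27.8, 28.8 and 23.8 CPM in controls. It was 6.99-fold lower, the largest fall of any member tested (log2 fold change -2.81, SE 0.16, adjusted p = 7.81e-05). Acnat2, its neighbour on chromosome 4 and close in sequence, measured 3.20, 3.47 and 6.71 CPM against 16.8, 31.9 and 25.4 CPM (log2 fold change -2.47, SE 0.36, adjusted p = 0.00191). Reads shared by this pair are uncertain. Nudt13, a nudix hydrolase, fell by 0.99 (adjusted p = 0.00415). Baat, which conjugates bile acids in the peroxisome, measured 254, 268 and 466 CPM against 250, 222 and 224 CPM and did not pass (adjusted p = 0.121).

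A list of 34 other genes, none of them members, held genes of these pathways and also transcriptional regulators. With TMM factors it gave 13 higher (38.2%, against 21.5% of all genes) and 8 lower (23.5%, against 21.5%) at an adjusted p under 0.05. The regulators Hnf4a, Nr1h4, Rxra and Ppargc1b are among the 13 higher, so these shares are not of pathway enzymes alone. Of the list, 7 were higher DEGs (20.6%, against 10.4%), among them Nr1h4 and Ppargc1b, and 5 lower DEGs (14.7%, against 13.8%). Cpt1a, the liver form of the enzyme that commits fatty acids to mitochondrial entry, measured 316, 304 and 265 CPM after ethanol and 140, 127 and 126 CPM in controls (log2 fold change 1.17, SE 0.11, adjusted p = 0.000426). Catalase, Cat, which removes peroxisomal hydrogen peroxide, measured 1597, 1577 and 1176 CPM against 2533, 2155 and 2167 CPM and fell by 0.66 (SE 0.16, adjusted p = 0.0135). Ehhadh, the other bifunctional enzyme of the peroxisomal cycle, measured 197, 201 and 154 CPM against 303, 193 and 198 CPM and did not pass (log2 fold change -0.33, adjusted p = 0.231). Ppara, the lipid-sensing nuclear receptor, measured 36.0, 31.8 and 19.0 CPM against 22.9, 20.6 and 17.5 CPM (log2 fold change 0.51, adjusted p = 0.122, and 0.75 with adjusted p = 0.00177 without ethanol replicate 3). Ppargc1a, a coactivator of mitochondrial genes, measured 23.0, 22.4 and 5.46 CPM against 8.32, 5.28 and 6.46 CPM (log2 fold change 1.34, adjusted p = 0.0653), with ethanol replicate 3 within the range of the controls, and passed without it (1.78, adjusted p = 0.000158).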

How the data were processed

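Per the labels, 3 ethanol and 3 control liver libraries were sequenced on an Illumina NovaSeq (paired-end), all in 1 batch. The authors deposited, per Ensembl gene, a raw count and an FPKM value after removal of adaptor, low-quality and ambiguous reads. The aligner, the counting software and the use of strand are not given in the sources used here. The submitters' processing notes name GRCm38, but starts or ends equal GENCODE M21 for 3 of the 98 members only, so no coordinates of the table are printed and promoter windows are from RefSeq. Another 1 count column matched no library and was not used.

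Counts were analysed in R 4.3.3 with edgeR 4.0.16 (filterByExpr, TMM, quasi-likelihood test, two-sided, Benjamini-Hochberg over 16717 genes). CPM values are TMM-normalised counts, "SE" is the standard error of a log2 fold change, and log2 fold changes are ethanol over control. FPKM served for levels between genes and for ratios within a library. Alternatives used DESeq2 1.42.0, limma 3.58.1 on log2(FPKM + 1) or log2(FPKM + 0.1), other scalings and filters, a replicate block and each library left out in turn. Genes at 3 counts or fewer in every library of a group were given a bound, which covers counting error only. A check of the test on simulated counts is not reported here.

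The members, roles, gene lists and tests were chosen with earlier results of these data known. Named members are, per role, up to 3 higher and 3 lower members of smallest adjusted p, the most abundant by FPKM in controls, and Hadha, Acadm, Cpt2, Acsl1, Pex5, Pex11a and Phyh. Others were chosen after their values were seen, and some members are not reported here. Nothing in the sources states that libraries of a group came from separate litters or cages, so p-values measure the spread between these 3 libraries per group. Libraries of a group differed by more than sampling noise (chi-square 53.9 to 545 times its degrees of freedom). A planned search for peroxisomal targeting signals in proteins was not run here.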

Additional observations from a re-analysis of the deposited data

How the results depend on the processing

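Member DEGs (6 higher, 8 lower), members past the adjusted p (31 higher, 22 lower) and the median log2 fold change (0.21, and 0.26 relative to all genes) depended on the scaling, the filter and the unit, while the value relative to all genes was 0.26 to 0.30 under the 5 scalings. With library size alone they became 2 and 28 DEGs, 5 and 43 past the adjusted p, and a median of -0.45, while of all genes 5.06% and 32.2% were DEGs and 7.39% and 48.3% passed the adjusted p. With limma on log2(FPKM + 0.1) they were 2 and 27, 5 and 46, -0.47 and 0.12 relative to all genes (all genes 4.4%, 29.7%, 7.58% and 51.9%), and with log2(FPKM + 1) they were 0 and 21, 5 and 46, -0.42 and -0.16 (all genes 2.44%, 10.2%, 7.47% and 51.7%). With a mean FPKM of at least 5 only 72 members were tested, and 1 was a higher DEG and 9 lower DEGs (all genes 9.91% and 10.2%). Of the 72, 14 passed as higher (19.4%, all genes 29.3%) and 21 as lower (29.2%, all genes 27.5%), and the medians were -0.03 and -0.04. Removing the length trend gave 8 higher and 4 lower DEGs (all genes 11.4% and 11.6%) and a median of 0.33, and upper quartile scaling gave a median of 0.12. Relative log expression kept the DEG counts of 6 and 8 (all genes 10.4% and 13.8%). DESeq2, with 96 members tested, gave 6 higher and 10 lower DEGs with 30 and 24 past the adjusted p (all genes 9.47%, 13.7%, 18.5% and 20.8%). No filter gave 5 and 10 with 24 (24.5% of 98) and 22 (all genes 6.07%, 8.33%, 11.6% and 12.3%). Leaving out same-strand overlaps left 77 members tested and gave 6 and 7 DEGs with 29 and 18 (all genes 10.4%, 13.7%, 21.2% and 21.2%). The cause was not tested.

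Among the members that the naming rule picked, 14 reversed under each of library size alone, log2(FPKM + 0.1) and log2(FPKM + 1). With values in that order, they included Acsl1 (-0.18, -0.37, -0.37), Acsl4 (-0.42, -0.48, -0.44), Acsl5 (-0.56, -0.62, -0.61), Abcd4 (-0.10, -0.10, -0.06), Pxmp2 (-0.24, -0.25, -0.24), Acadl (-0.10, -0.11, -0.10), Acadm (-0.06, -0.07, -0.07), Hadha (-0.42, -0.45, -0.43), Pipox (-0.39, -0.40, -0.40), Xdh (-0.45, -0.45, -0.42), Pex11a (-0.00, -0.02, -0.02), Phyh (-0.05, -0.06, -0.06) and Scp2 (-0.51, -0.53, -0.53). Under a mean FPKM of at least 5, Acsl4 (-0.04), Acsl5 (-0.19), Hadha (-0.03), Pipox (-0.00), Xdh (-0.04) and Scp2 (-0.12) reversed, and with the length trend removed Acadsb (0.11) and Cpt2 (0.04) did. Other members reversed too, such as Hsd17b4 (-0.07), Acads (-0.13) and Pxmp4 (-0.13) under that filter and Acat1 (0.11) and Acox2 (0.01) with the length trend removed.

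With a library left out, DEGs numbered 5 to 7 higher and 6 to 9 lower (all genes 8.57% to 10.9% and 9.88% to 16.5%). Members past the adjusted p numbered 16 to 44 higher and 17 to 25 lower (all genes 14.5% to 24.7% and 13.5% to 27.4%), and the medians were 0.14 to 0.25 and 0.20 to 0.32. Among the members that the naming rule picked, Cpt2 reversed without control replicate 1 (0.08) or ethanol replicate 3 (0.01), Acsl4 without ethanol replicate 1 (-0.01, and up to 0.49 in the other such fits) and Acsl5 without ethanol replicate 2 (-0.09, and up to 0.35). Of other members named, Acat1 (0.09), Pex6 (0.03), Acox2 (0.01) and Pxmp4 (-0.59) reversed without ethanol replicate 3, Acat1 also without control replicate 1 (0.07), and none of these had passed. Same-numbered libraries did not deviate together (correlations of -0.03, -0.02 and -0.02), so no pairing by number was seen. With 3 libraries per group, a pairing of small effect could be missed. With the replicate block, DEGs were 6 higher and 9 lower (all genes 9.08% and 12%). Past the adjusted p were 26 and 18 members (all genes 17.3% in each direction), and the median was 0.19. With 3 mice per group, the number of mice and not the depth limits the precision, except for members of few counts such as Cpt1c. Far1 (164, 8 and 198 counts in the controls) and Cpt1b (247, 34 and 270) differed between control libraries by more than counting error.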

Other observations

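Genes beside the members also moved in both directions with TMM factors. Of the carriers that feed fatty acids and carnitine into the cell, Slc22a5 (log2 fold change 2.18, adjusted p = 0.000479 by edgeR), the carnitine transporter, and Slc27a2 (1.38, adjusted p = 0.000734), a fatty acid carrier and very long-chain synthetase, were higher in 3 of 3 ethanol libraries than in any control. The acyl-CoA thioesterases Acot3 (2.38) and Acot12 (1.16) passed as higher, and Acot4 was at 0.00. Lonp2, the protease of the peroxisome matrix, measured 115, 118 and 112 CPM after ethanol and 294, 273 and 271 CPM in controls (log2 fold change -1.28, adjusted p = 0.00019). Acbd4 (-1.42) and Acbd5 (-1.05), which tether peroxisomes to the endoplasmic reticulum, also fell, and Acbd5 lost the call without control replicate 1 (adjusted p = 0.0527) or 3 (0.059) and was at -0.77 without ethanol replicate 3. Acacb, whose product malonyl-CoA inhibits Cpt1a, fell by 1.30 on the log2 scale (adjusted p = 0.0025). These genes were chosen after their values were seen.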
